A study of Homo sapiens with 14 samples.

Results

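The mitosis genes described here are 41 genes whose products build the spindle, hold and separate the chromosomes, or drive the cell through division. They were listed by name, with earlier results of these data known. All 41 were measured, by 79 of the 54613 probe sets tested, and each is given by its brightest probe set, the one with the highest mean signal over the 14 arrays, out of 19775 genes treated in the same way. The cells were LY2, an endocrine-resistant breast cancer line derived from MCF-7 cells, which the labels call tamoxifen resistant. Every group shared the same history: culture in hormone-stripped medium with 10 nM 4-hydroxytamoxifen, the active metabolite of tamoxifen, then 72 hours without it, then transfection with 40 nM siRNA and 24 hours of waiting. The siRNA was either directed at SRC-1, a coactivator of nuclear receptors encoded by NCOA1, or was a scrambled control, and the labels name 1 siRNA for the target. Cells then received 100 nM 4-hydroxytamoxifen or only its ethanol vehicle for 2 hours, and RNA was read on Affymetrix HG-U133 Plus 2.0 arrays. There were 4 arrays of control siRNA without tamoxifen, 4 of control siRNA with it, 4 of SRC1 siRNA without it and 2 of SRC1 siRNA with it, the last with replicate numbers 1 and 3. The labels call replicates biological but do not say that they were separate cultures, so p-values measure the spread between these arrays.

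In a dividing cell, cyclin-dependent kinase 1 bound to cyclin B starts mitosis, and Aurora and Polo kinases mature the centrosomes and the spindle. Kinetochores assembled on the centromeres catch microtubules, and the spindle checkpoint holds the cell until every chromosome is attached. The anaphase-promoting complex with CDC20 then destroys securin and cyclin B, separase cuts cohesin, and a contractile ring divides the cell. Most of these genes are transcribed in G2 and M phase, through promoters that often carry a CHR element bound by the MuvB complex, CCAAT boxes bound by NF-Y, and with help from FOXM1 and B-MYB. Their summed level is widely read as a measure of proliferation in breast tumours. In RNA from a whole culture, fewer cells in division and less RNA per dividing cell cannot be told apart.

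The SRC1 siRNA lowered NCOA1 in both settings. The mean of its 4 probe sets was 8.997 ± 0.25 (SD) in control and 7.70 ± 0.36 in SRC1-siRNA arrays without tamoxifen, and 9.06 ± 0.18 against 7.74 ± 0.25 with it, all on the log2 scale, and 4 of 4 probe sets were lower in both comparisons. All 10 luminal breast markers listed were above the median signal of the probe sets (10.4 to 13.6), among them ESR1, KRT8, EPCAM and GATA3. On knockdown without tamoxifen CDH1 was called lower (-0.27) and KRT8 higher (0.31), and the other luminal markers did not pass. Of the other lists, 2 of 7 basal or mesenchymal, 1 of 9 fibroblast, 0 of 6 immune and 1 of 8 endothelial markers were above it, the brightest being COL1A1 at 10.9. The summed endothelial level was 21.7 to 22.1 in the control untreated arrays and 22.3 to 23.2 in the SRC1-siRNA untreated arrays, with the dim PECAM1 (3.15) higher in the latter. By sign 5 of the 8 endothelial markers were higher there and 3 lower. The summed fibroblast level was 28.8 to 29.6 and 29.3 to 29.8, the basal 19.4 to 20.8 and 19.9 to 20.5, and the immune 12.4 to 12.6 and 12.5 to 13.3, in the same order. With tamoxifen the endothelial sum was 21.7 to 22.1 in control and 20.5 to 21.4 in SRC1-siRNA arrays, and the other sums overlapped. There the dim CDH5 (2.56) was called lower (-0.36), and by sign 6 of the 8 endothelial markers were lower and 2 higher. The part of these markers in the results was not tested. Array medians lay between 3.44 and 3.51. The difference between the 3′ and 5′ control probe sets was 2.67 to 3.45 for ACTB and 0.642 to 0.973 for GAPDH, with every group overlapping the others. The SRC1-siRNA tamoxifen array of replicate 1 had the highest array median (3.51) and the highest GAPDH difference (0.973), with 3.27 for ACTB. The part of RNA quality in the results was not tested.

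The mean signals of the mitosis genes ran from 4.90 for CENPA, the centromeric histone, to 12.8 for BIRC5, with a median of 10.1. Since probe sets differ in how well they bind, levels are not compared between genes.

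Knockdown of SRC-1 was followed by lower signals of mitosis genes, and no member was called higher. In untreated cells 7 of 41 fell, namely AURKA, BIRC5, BUB1B, FOXM1, HMMR, KIF4A and PTTG1, where 5.98% of all genes fell and 5.97% rose. Their changes lay between -0.16 and -0.35. The median over all 41 was -0.14, against -0.0036 over all genes, and 36 of 41 differences were negative. In tamoxifen-treated cells 18 of 41 fell, where 8.71% of all genes fell and 6.49% rose. They were ANLN, AURKA, BIRC5, BUB1B, CCNB1, CCNB2, CDK1, DLGAP5, ECT2, HMMR, KIF14, KIF23, KIF4A, MAD2L1, NEK2, PRC1, TOP2A and TTK. There the median was -0.31, against -0.03 over all genes, and 39 of 41 differences were negative. Among genes above the median signal the shares lower were 8.68% without and 11.6% with tamoxifen. SRC1-siRNA arrays lay wholly below the control arrays for 9 members without tamoxifen, where 9.4% of all genes did, and for 32 members with it, where 23% did. A fit of the siRNA over both treatments called 22 of 41 lower and 0 higher, where 11.1% of all genes were lower and 9.34% higher, with a median of -0.21.

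**Figure D1:**
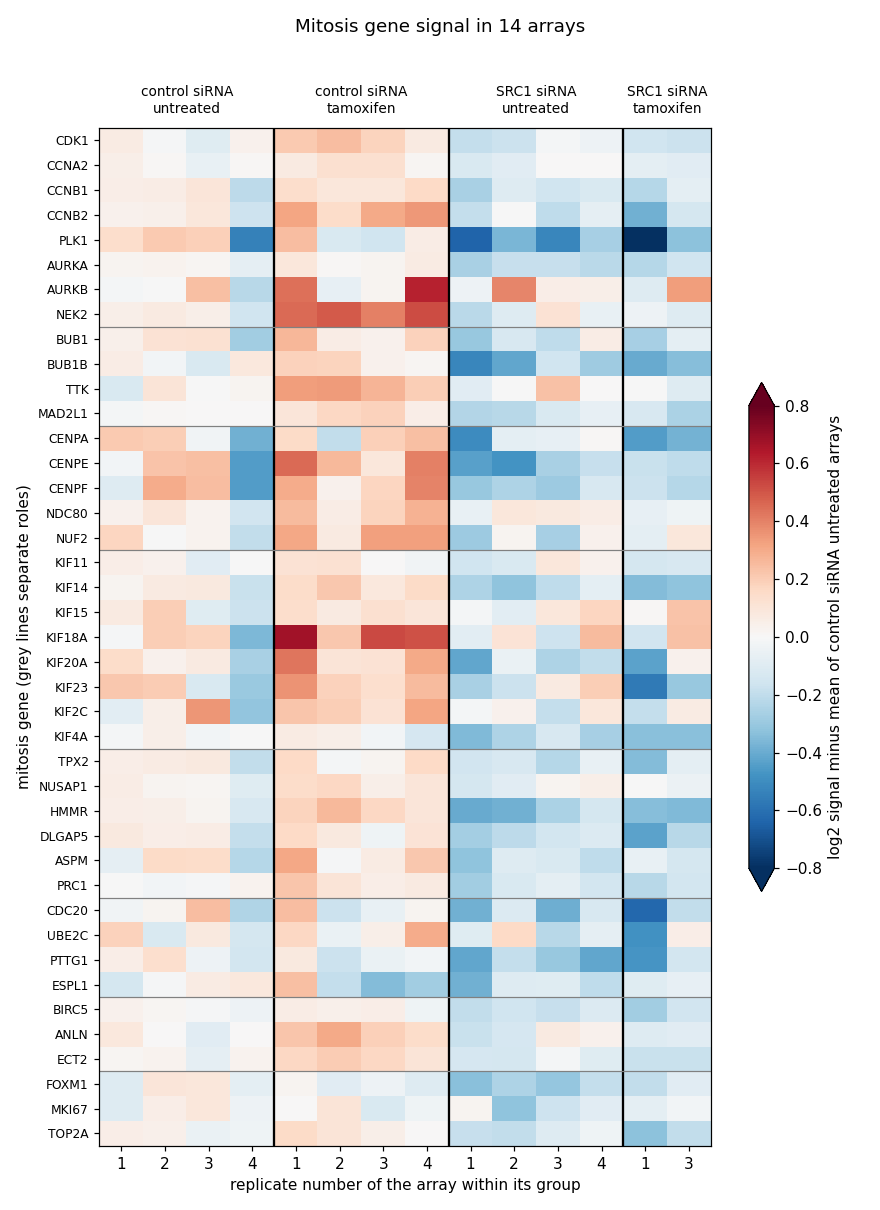
Log2 signal of each of the 41 mitosis genes (rows, grouped by role) in each of the 14 arrays (columns, by group and replicate number), as the difference from the mean of the 4 control-siRNA untreated arrays. Blue is lower and red higher: SRC1-siRNA columns are mostly blue, control tamoxifen columns mostly red, and the control untreated array of replicate 4 is bluer than the other arrays of its group.

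All calls used limma's moderated test on the deposited log2 values, adjusted over 54613 probe sets at 0.05, and changes are given as log2 differences ± the standard error, SRC1 siRNA minus control siRNA. Without the control untreated array of replicate 4, 12 members passed in untreated cells (6 of them shared with the 7). Without the SRC1-siRNA tamoxifen array of replicate 1, which left a single array in that group, fewer than 18 passed in treated cells. The share of all genes called was not computed for these refits. Whether the members lost or gained more calls than other genes there cannot be told. A model that also held each array's replicate number left 0 in untreated and 4 in treated cells (CCNB2, HMMR, KIF14 and NEK2), against 2.23% and 1.31% of all genes. Over both treatments that model left 11, against 5.94%. The median change in treated cells was -0.25 without the SRC1-siRNA tamoxifen array of replicate 1 and -0.36 without that of replicate 3.

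**Figure D2:**
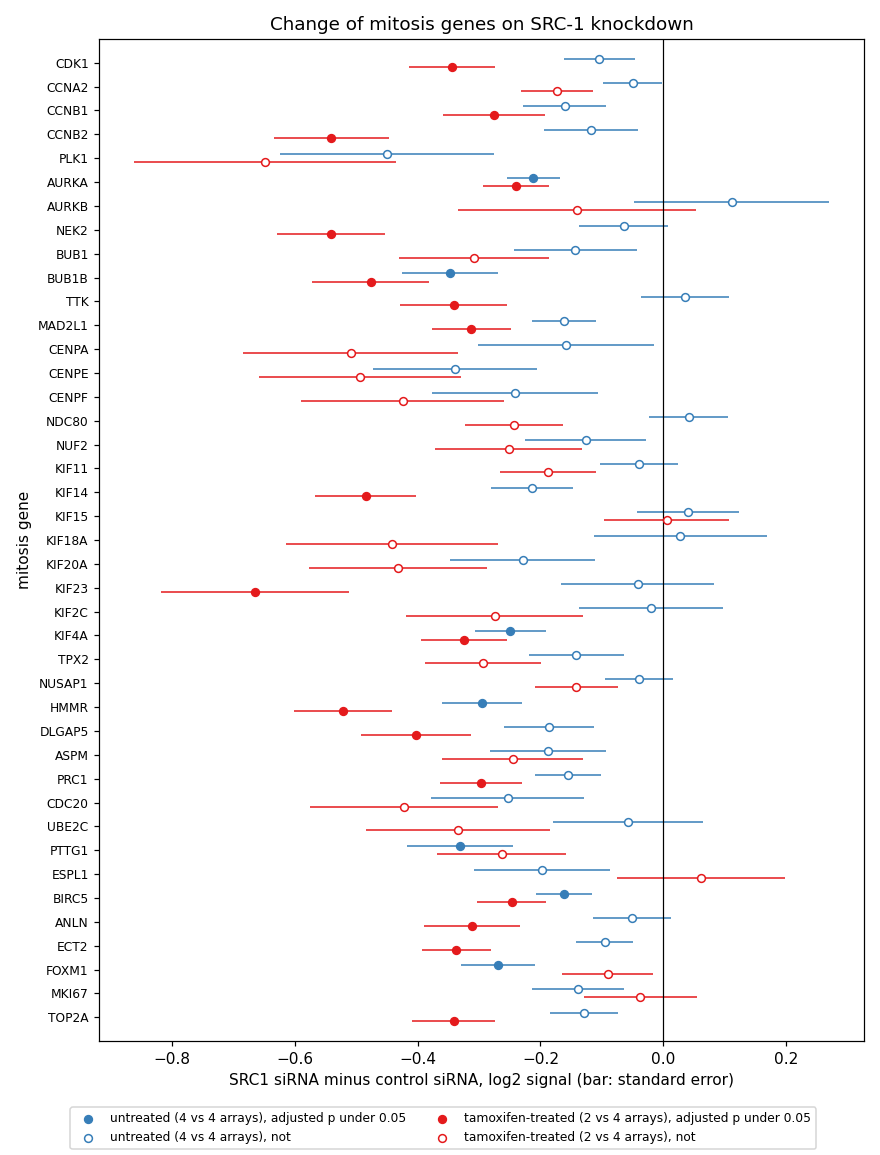
Change of each mitosis gene on SRC-1 knockdown (horizontal axis, SRC1 siRNA minus control siRNA, log2, with the standard error) without tamoxifen (blue, 4 against 4 arrays) and with it (red, 2 against 4 arrays). Filled points had an adjusted p under 0.05; 7 blue and 18 red points are filled, all to the left of 0.

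The 4 members that passed with tamoxifen in both forms of the model were CCNB2, HMMR, KIF14 and NEK2. Their promoters were searched for elements through which this class of genes is known to be controlled. The promoters are printed from RefSeq (GRCh38.p14), 250 bases before to 50 bases after the start of transcription, 5′ to 3′ on the gene's strand. Capitals mark the CHR element TTTGAA, the CCAAT box CCAAT and the E2F sites TTCCCGC or TTGGCGC, each searched on both strands, so that TTCAAA and ATTGG are the reverse forms. The windows are chr15:59104896-59105195 (plus strand) for CCNB2, chr5:163460382-163460681 (plus) for HMMR, chr1:200620702-200621001 (minus) for KIF14 and chr1:211675572-211675871 (minus) for NEK2.
CCNB2: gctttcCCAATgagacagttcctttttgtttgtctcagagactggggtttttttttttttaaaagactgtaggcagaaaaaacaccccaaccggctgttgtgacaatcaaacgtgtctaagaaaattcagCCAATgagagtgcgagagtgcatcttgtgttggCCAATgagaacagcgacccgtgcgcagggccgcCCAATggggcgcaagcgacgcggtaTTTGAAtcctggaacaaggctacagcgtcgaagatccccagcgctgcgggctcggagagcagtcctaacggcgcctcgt
HMMR: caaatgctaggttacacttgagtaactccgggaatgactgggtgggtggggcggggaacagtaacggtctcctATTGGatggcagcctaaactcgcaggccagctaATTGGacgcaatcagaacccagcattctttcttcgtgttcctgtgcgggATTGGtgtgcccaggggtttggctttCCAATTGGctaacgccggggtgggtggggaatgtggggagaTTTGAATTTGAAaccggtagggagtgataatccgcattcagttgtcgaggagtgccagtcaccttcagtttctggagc
KIF14: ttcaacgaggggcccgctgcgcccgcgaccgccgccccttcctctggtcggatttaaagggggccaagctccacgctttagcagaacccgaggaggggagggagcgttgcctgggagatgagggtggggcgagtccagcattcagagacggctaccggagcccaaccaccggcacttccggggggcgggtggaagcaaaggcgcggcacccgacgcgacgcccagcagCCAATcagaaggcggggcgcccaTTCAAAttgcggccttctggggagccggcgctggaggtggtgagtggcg
NEK2: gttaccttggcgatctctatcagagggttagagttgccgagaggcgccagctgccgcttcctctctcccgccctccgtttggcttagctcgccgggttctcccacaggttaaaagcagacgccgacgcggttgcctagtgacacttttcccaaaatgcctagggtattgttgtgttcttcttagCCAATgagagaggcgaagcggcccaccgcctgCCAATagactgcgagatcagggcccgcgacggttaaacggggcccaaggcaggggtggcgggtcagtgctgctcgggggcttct

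In the CCNB2 promoter, 4 CCAAT boxes at -244, -120, -87 and -54 stood before a CHR element at -29. HMMR carried 5 CCAAT boxes, of which the pair at -69 and -66 overlap on opposite strands, and 2 adjoining CHR elements at -28 and -22. KIF14 had a CCAAT box at -22 and a CHR element in reverse at position 2, just inside the transcript. NEK2 had CCAAT boxes at -66 and -34, and these letters of the CHR element are not in its window. The E2F letters are in none of these windows. Promoters were matched for 35 of the 41 members. AURKA, BIRC5, FOXM1, TPX2, TTK and UBE2C were not matched, and where the table holds several starts for a gene the first was taken. Of the 35, 26 (74.3%) held TTTGAA, against 15.2% of 35116 promoters of the same length. CCAAT was in 28 (80.0%), against 34.6%, both elements were in 21 (60.0%), against 5.90%, and an E2F site was in 6 (17.1%), against 9.23%. Of the 15 matched members that fell with tamoxifen, 13 held TTTGAA, 13 CCAAT, 11 both and 2 an E2F site. Of the 4 matched members that fell without it, 3 held TTTGAA, 3 CCAAT, 2 both and 0 an E2F site. These are matches of letters and not shown binding.

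Among the 8 mitotic kinases and cyclins, 1 fell in untreated cells and 5 in tamoxifen-treated cells. CDK1, the kinase that drives entry into mitosis, read 12.47, 12.51, 12.44 and 12.33 in the control tamoxifen arrays and 12.10 and 12.09 in the SRC1-siRNA tamoxifen arrays. The groups did not overlap, and the signal was 21.2% lower on the linear scale (-0.34 ± 0.07, adjusted p = 0.00821). Without tamoxifen CDK1 read 12.33, 12.25, 12.17 and 12.30 in control and 12.07, 12.09, 12.24 and 12.22 in SRC1-siRNA arrays. Those groups overlapped (-0.10 ± 0.06, adjusted p = 0.282).

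CCNB2, a cyclin B that partners CDK1, read 9.80, 9.63, 9.79 and 9.83 with control siRNA and tamoxifen, against 9.10 and 9.34 with SRC1 siRNA and tamoxifen, a fall of 31.2% (-0.54 ± 0.09, adjusted p = 0.00350). Both SRC1-siRNA arrays lay below all 4 controls. Untreated, it read 9.52, 9.52, 9.58 and 9.31 in control and 9.29, 9.48, 9.28 and 9.41 in SRC1-siRNA arrays, which overlapped (-0.12 ± 0.08, adjusted p = 0.367). CCNB1, the main mitotic cyclin, read 12.13, 12.08, 12.08 and 12.15 in the control tamoxifen arrays and 11.76 and 11.91 in the SRC1-siRNA ones (-0.28 ± 0.08, adjusted p = 0.0431). Its groups did not overlap with tamoxifen, but the call was lost in 17 of 25 alternative fits (adjusted p up to 0.308), among them 11 of the 14 that leave out 1 array. Without tamoxifen the control arrays read 12.04, 12.05, 12.08 and 11.78 and the SRC1-siRNA arrays 11.73, 11.89, 11.83 and 11.87 (-0.16 ± 0.07, adjusted p = 0.154). There the control array of replicate 4 lay among the SRC1-siRNA arrays.

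AURKA, the Aurora kinase of the spindle poles, was the only one of these 8 genes to fall in both settings. Untreated control arrays read 12.25, 12.26, 12.25 and 12.16 and SRC1-siRNA arrays 11.97, 12.05, 12.04 and 12.01 (-0.21 ± 0.04, adjusted p = 0.00882). With tamoxifen the values were 12.32, 12.24, 12.25 and 12.30 against 12.003 and 12.07 (-0.24 ± 0.05, adjusted p = 0.0124). Every SRC1-siRNA array lay below every control array in both settings. AURKB, the Aurora kinase of the chromosome passenger complex, did not pass in either (0.11 ± 0.16 and -0.14 ± 0.19).

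NEK2, a kinase that splits the centrosomes before spindle formation, read 9.90, 9.94, 9.85 and 9.97 in the control tamoxifen arrays and 9.40 and 9.35 with SRC1 siRNA, 31.3% lower (-0.54 ± 0.09, adjusted p = 0.00274). Untreated control arrays read 9.49, 9.52, 9.49 and 9.29, and SRC1-siRNA arrays 9.23, 9.35, 9.57 and 9.39, which overlapped (-0.06 ± 0.07, adjusted p = 0.626). The control tamoxifen arrays thus stood above all 10 others for NEK2. PLK1, the Polo kinase, had large but spread-out differences of -0.45 ± 0.17 and -0.65 ± 0.21 (adjusted p = 0.122 and 0.0597), and passed over both treatments (-0.53 ± 0.13, adjusted p = 0.0128). Its untreated control arrays read 8.63, 8.70, 8.69 and 7.95 and the SRC1-siRNA arrays 7.85, 8.13, 7.97 and 8.22, so that replicate 4 of the controls lay with the knockdown. CCNA2, the cyclin of S phase and early mitosis, differed by -0.05 ± 0.05 and -0.17 ± 0.06 and did not pass.

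Of the 4 spindle checkpoint genes, 1 fell in untreated and 3 in treated cells. BUB1B, the checkpoint protein BubR1, read 10.14, 10.06, 9.96 and 10.17 in untreated control arrays and 9.56, 9.66, 9.92 and 9.79 with SRC1 siRNA, a fall of 21.4% (-0.35 ± 0.08, adjusted p = 0.0132). With tamoxifen it read 10.27, 10.26, 10.11 and 10.10 against 9.68 and 9.74, a fall of 28.1% (-0.48 ± 0.10, adjusted p = 0.00722). The groups did not overlap in either setting, though replicate 3 came close without tamoxifen.

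MAD2L1, which binds and restrains CDC20, read 12.32, 12.39, 12.41 and 12.28 with control siRNA and tamoxifen and 12.10 and 11.98 with SRC1 siRNA (-0.31 ± 0.06, adjusted p = 0.00823). Untreated, it read 12.21, 12.24, 12.23 and 12.23 against 11.99, 12.01, 12.11 and 12.16 (-0.16 ± 0.05, adjusted p = 0.0683). Both pairs of groups were separate, and only the treated difference passed. TTK, the kinase MPS1 that starts the checkpoint signal, fell with tamoxifen (-0.34 ± 0.09, adjusted p = 0.0224) and differed by 0.04 ± 0.07 without it. BUB1, a checkpoint kinase, did not pass (-0.14 ± 0.10 and -0.31 ± 0.12).

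None of the 5 centromere and kinetochore genes passed in either comparison, although their median was -0.42 with tamoxifen. CENPE, a kinetochore motor, differed by -0.34 ± 0.13 and -0.49 ± 0.16 and passed only over both treatments (-0.40 ± 0.10, adjusted p = 0.0142). Its untreated control arrays read 9.01, 9.26, 9.27 and 8.59 and the SRC1-siRNA arrays 8.60, 8.56, 8.77 and 8.85, again with replicate 4 of the controls among the knockdown arrays. CENPA differed by -0.16 ± 0.14 and -0.51 ± 0.18, and CENPF, a large kinetochore protein, by -0.24 ± 0.13 and -0.42 ± 0.17. NDC80 and NUF2, subunits of the complex that grips microtubules, differed by -0.24 ± 0.08 and -0.25 ± 0.12 with tamoxifen.

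Among 8 kinesin motors, 1 fell without and 3 with tamoxifen. KIF14, a kinesin of the midzone and cytokinesis, read 11.23, 11.30, 11.16 and 11.24 in control tamoxifen arrays against 10.74 and 10.76, 28.5% lower (-0.48 ± 0.08, adjusted p = 0.00313). Untreated, it read 11.10, 11.16, 11.16 and 10.91 against 10.83, 10.76, 10.88 and 11.01 (-0.21 ± 0.07, adjusted p = 0.0595). The groups were separate with tamoxifen, and without it the SRC1-siRNA array of replicate 4 lay above the control array of that number.

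KIF4A, a chromosome-bound kinesin that organises the central spindle, read 11.52, 11.58, 11.51 and 11.53 in untreated control and 11.18, 11.29, 11.41 and 11.27 in SRC1-siRNA arrays (-0.25 ± 0.06, adjusted p = 0.0153). With tamoxifen it read 11.60, 11.59, 11.51 and 11.40 against 11.20 and 11.20 (-0.32 ± 0.07, adjusted p = 0.0106). All SRC1-siRNA arrays were below all controls within each setting. KIF23, which bundles microtubules for cytokinesis, had the largest called fall of the 41 in treated cells, 36.9% (-0.66 ± 0.15, adjusted p = 0.0139), and differed by -0.04 ± 0.12 without tamoxifen. The other 5 kinesins ranged from -0.23 (KIF20A) to 0.04 (KIF15) untreated, and from -0.44 (KIF18A) to 0.01 (KIF15) treated, and none passed. KIF20A, a kinesin of the central spindle, passed over both treatments (-0.31, adjusted p = 0.0324), a call lost in 8 of 24 alternative fits.

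The 6 spindle microtubule proteins were lower in all 6 cases by sign, with 1 call untreated and 3 treated. HMMR, which anchors the spindle poles, read 11.69, 11.69, 11.66 and 11.51 in untreated control and 11.24, 11.25, 11.38 and 11.50 in SRC1-siRNA arrays (-0.30 ± 0.07, adjusted p = 0.0127). With tamoxifen it read 11.82, 11.90, 11.80 and 11.73 against 11.30 and 11.29, a fall of 30.3% (-0.52 ± 0.08, adjusted p = 0.00213), the smallest adjusted p of the 41. The groups were separate in both settings, though narrowly at replicate 4 without tamoxifen.

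DLGAP5, a spindle assembly factor, read 11.20, 11.12, 11.003 and 11.15 in control tamoxifen arrays and 10.61 and 10.82 with SRC1 siRNA (-0.40 ± 0.09, adjusted p = 0.0116). Untreated, it read 11.11, 11.09, 11.10 and 10.85 against 10.77, 10.83, 10.89 and 10.93, which overlapped (-0.19 ± 0.07, adjusted p = 0.125). PRC1, which crosslinks the central spindle, read 10.97, 10.85, 10.80 and 10.82 against 10.53 and 10.60 with tamoxifen (-0.30 ± 0.07, adjusted p = 0.0123). Its untreated arrays read 10.75, 10.73, 10.74 and 10.78 against 10.47, 10.63, 10.67 and 10.61 (-0.16 ± 0.05, adjusted p = 0.0877). PRC1 groups did not overlap in either setting. TPX2, ASPM and NUSAP1, which nucleate or hold spindle microtubules, ranged from -0.19 to -0.04 untreated and from -0.29 to -0.14 treated without passing. TPX2 passed over both treatments (-0.20, adjusted p = 0.0358), a call lost in 12 of 24 alternative fits.

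Of the 4 genes of the anaphase trigger, 1 fell in untreated cells and 0 in treated cells. PTTG1, the securin that restrains separase, read 12.47, 12.55, 12.38 and 12.27 in untreated control and 11.9996, 12.22, 12.12 and 12.0003 in SRC1-siRNA arrays, 20.5% lower (-0.33 ± 0.09, adjusted p = 0.0268), a call lost in 8 of 25 alternative fits. With tamoxifen it read 12.49, 12.24, 12.36 and 12.39 against 11.95 and 12.27, which overlapped (-0.26 ± 0.11, adjusted p = 0.114). CDC20 and UBE2C, which act in marking the targets of anaphase with ubiquitin, differed by -0.42 ± 0.15 and -0.33 ± 0.15 with tamoxifen without passing there. CDC20 passed over both treatments (-0.32, adjusted p = 0.0326), a call lost in 8 of 24 alternative fits. ESPL1, separase itself, was the only member of the 4 with a positive difference there (0.06 ± 0.14).

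All 3 genes of the chromosome passenger complex and cytokinesis fell with tamoxifen, and 1 fell without it. BIRC5, survivin, read 12.85, 12.84, 12.81 and 12.78 in untreated control and 12.62, 12.66, 12.64 and 12.71 in SRC1-siRNA arrays (-0.16 ± 0.05, adjusted p = 0.0397). With tamoxifen it read 12.88, 12.86, 12.87 and 12.78 against 12.54 and 12.66 (-0.25 ± 0.06, adjusted p = 0.0133). The groups were separate in both settings. The BIRC5 call without tamoxifen was lost in 15 of 25 alternative fits, 9 of them leaving out 1 array, and the call with tamoxifen in 5 of 25.

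ECT2, which activates RhoA at the cleavage site, read 12.04, 12.08, 12.04 and 11.97 in control tamoxifen arrays against 11.69 and 11.69, a clear gap (-0.34 ± 0.06, adjusted p = 0.00311). Its untreated arrays read 11.89, 11.90, 11.80 and 11.90 against 11.74, 11.73, 11.86 and 11.78 and overlapped (-0.10 ± 0.05, adjusted p = 0.217). ANLN, the ring scaffold anillin, fell with tamoxifen (-0.31 ± 0.08, adjusted p = 0.0205).

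The last 3 members are a regulator and the standard markers of proliferation. Of these, 1 fell without tamoxifen (FOXM1), 1 with it (TOP2A), and both over the 2 treatments together. FOXM1, the forkhead factor that activates many of the other members, read 10.58, 10.78, 10.77 and 10.60 in untreated control and 10.35, 10.44, 10.38 and 10.495 in SRC1-siRNA arrays, 17.03% lower with no overlap (-0.27 ± 0.06, adjusted p = 0.0132). With tamoxifen it read 10.71, 10.59, 10.64 and 10.58 against 10.49 and 10.59, which overlapped (-0.09 ± 0.07, adjusted p = 0.450). FOXM1 thus passed where fewer members did, and did not pass where more did. Its interaction of 0.18 ± 0.10 had an adjusted p of 0.356.

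MKI67, the Ki-67 antigen used to score proliferation in the clinic, did not pass in either setting. It read 9.49, 9.65, 9.68 and 9.55 in untreated control and 9.62, 9.27, 9.43 and 9.50 in SRC1-siRNA arrays (-0.14 ± 0.07, adjusted p = 0.268), and 9.60, 9.70, 9.47 and 9.56 against 9.52 and 9.57 with tamoxifen (-0.04 ± 0.09, adjusted p = 0.823). Both pairs of groups overlapped. TOP2A, which untangles sister chromatids, read 12.63, 12.59, 12.53 and 12.49 in control tamoxifen arrays against 12.15 and 12.28, 21.1% lower without overlap (-0.34 ± 0.07, adjusted p = 0.00705). Untreated, it read 12.53, 12.52, 12.43 and 12.45 against 12.30, 12.29, 12.38 and 12.45 (-0.13 ± 0.06, adjusted p = 0.163).

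**Figure D3:**
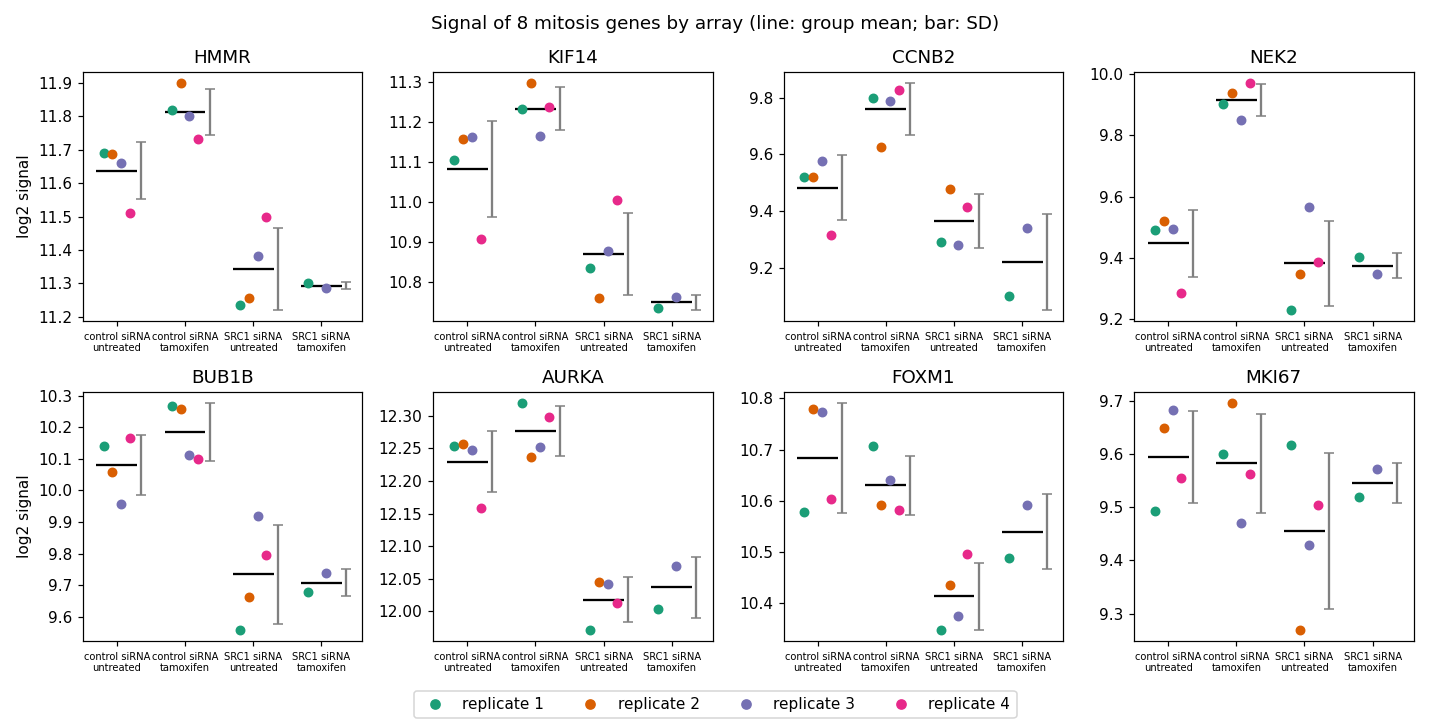
Log2 signal of 8 mitosis genes in each array (points, coloured by replicate number) by group, with the group mean (line) and SD (bar); each panel has its own vertical axis, which does not start at 0. HMMR, BUB1B and AURKA lie lower with SRC1 siRNA in both settings, without overlap. KIF14, CCNB2 and NEK2 groups are separate in this way with tamoxifen and overlap without it. FOXM1 groups overlap with tamoxifen but not without it, and MKI67 groups overlap in both settings.

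Tamoxifen for 2 hours in control-siRNA cells was accompanied by mostly positive differences, of which 1 passed. NEK2 rose by 0.47 ± 0.07 (adjusted p = 0.0343), where 0.0961% of all genes rose and 0.152% fell. The 4 tamoxifen arrays lay well above the 4 untreated ones, whose values are given above. The NEK2 call was lost when any of 10 single arrays was left out and in 6 other settings (adjusted p 0.0275 to 0.666 over all 25 alternatives), while its change stayed between 0.29 and 0.49. Of the 41 members 36 had positive differences, with a median of 0.12 against 0.0049 over all genes. For 11 the tamoxifen arrays lay wholly above the untreated ones, where 5.55% of all genes did, and 13 (31.7%) had an unadjusted p under 0.05, against 17% of all genes. KIF18A, a kinesin that dampens chromosome movement, had the largest difference (0.48 ± 0.14, adjusted p = 0.141), followed by NEK2, CENPE (0.30 ± 0.13) and TTK (0.29 ± 0.07, adjusted p = 0.0976).

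In SRC1-siRNA cells 0 of 41 passed for tamoxifen, where 0.485% of all genes fell and 0.334% rose; 1 member (2.44%) had an unadjusted p under 0.05, against 13.7% of all genes, and the median was -0.04, against -0.02. The tamoxifen effect over both siRNAs also called 0 members, where 0.157% of all genes fell and 0.091% rose, with 4 members (9.76%) under 0.05 unadjusted, against 12.9% of all genes. Whether the knockdown differed between treated and untreated cells was tested as an interaction, and 0 of 41 passed, where 0.111% of all genes were lower and 0.0607% higher. In that test 11 members (26.8%) had an unadjusted p under 0.05, against 15.7% of all genes. The median was -0.17 and 37 of 41 (90.2%) were negative, against -0.02 and 55.2% over all genes, the nearest to passing being NEK2 (-0.48 ± 0.11, adjusted p = 0.0823). The higher count of falls with tamoxifen (18 against 7) is therefore not shown to be a difference between the settings. The knockdown with tamoxifen and the tamoxifen comparison in control cells share the 4 control tamoxifen arrays, so a high value there adds to both.

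Arrays of the same replicate number were also compared directly, though the numbers are not shown to pair the arrays. On knockdown without tamoxifen, 38, 38 and 30 of the 41 members were lower at numbers 1, 2 and 3 (medians -0.25, -0.17 and -0.21), but 15 at number 4 (median 0.07). With tamoxifen 41 were lower at number 1 (median -0.44) and 36 at number 3 (median -0.21). Tamoxifen in control cells gave 39, 26, 25 and 36 higher members at numbers 1 to 4, with medians of 0.13, 0.04, 0.04 and 0.27. Number 4 thus had the largest rise with tamoxifen and no fall with knockdown, and both differences use its control untreated array. The mean over all 41 members in the control untreated arrays was 10.28, 10.32, 10.30 and 10.10, so that array stood lowest. It was 10.47, 10.34, 10.34 and 10.41 in control tamoxifen, 10.01, 10.12, 10.13 and 10.18 in SRC1-siRNA untreated, and 10.00 and 10.13 in SRC1-siRNA tamoxifen arrays. The low array's part in these differences is measured by leaving it out: the median knockdown change in untreated cells was then -0.17, and the tamoxifen median in control cells 0.08.

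**Figure D4:**
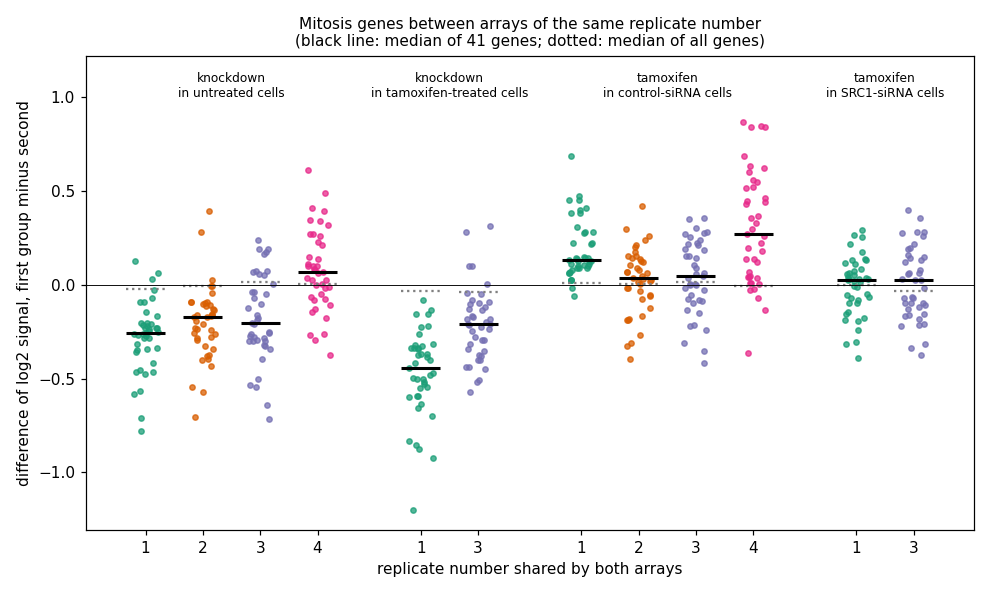
Difference in log2 signal between 2 arrays of the same replicate number for each of the 41 mitosis genes (points), in 4 comparisons, with the median of the 41 (black line) and of all genes (dotted line). Points lie mostly below 0 for knockdown except at number 4 without tamoxifen, whose median is 0.07, and mostly above 0 for tamoxifen in control-siRNA cells.

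The members also varied together inside the groups. With group means removed, the correlation over 14 arrays was above 0 for 79.0% of the 820 pairs of members, with a median of 0.39 and a range from -0.69 to 0.96. Every pair is read from the same 14 arrays, so the correlations share whatever differs between arrays and are given as a description. Pairs of other genes were not computed, so the shared movement is not shown to be particular to the members. BUB1, PLK1, DLGAP5 and CCNB1 followed the mean of the other 40 members most closely (0.96, 0.95, 0.93 and 0.91). ECT2, MAD2L1, MKI67 and CDK1 did not follow it (-0.12, -0.07, -0.03 and 0.01).

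Several members were read by more than 1 probe set, and 20 had at least 2 above the median signal. The probe sets of a gene lay on both sides of 0 in 7 of these 20 without tamoxifen and in 3 with it (NEK2, ASPM and MKI67), where 1 ASPM probe set differed by 0.32. At least 1 dimmer probe set was lower than the brightest in 10 of 20 without and 16 of 20 with tamoxifen. With tamoxifen, for CDK1 all 4 probe sets fell (-0.34 to -0.57), for AURKA all 3 (-0.24 to -0.42), and for KIF14 the dimmer one fell by 0.93 against 0.48. KIF14 and KIF23 each had a dimmer probe set that also fell without tamoxifen (-0.51, adjusted p = 0.0167, and -0.57, adjusted p = 0.0206) where the brightest did not pass. The second NEK2 probe set, near the floor at 3.76, did not pass (0.07 ± 0.14), and the 2 dimmer ECT2 probe sets did not pass either (-0.01 and -0.06). All 4 MKI67 probe sets failed to pass in treated cells (-0.21 to 0.003).

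Other genes of mitosis, in 10 lists that hold none of the 41, were read in the same way. Of 148 measured, 11 fell and 6 rose on knockdown without tamoxifen (7.43% and 4.05%, median -0.05), which is near the 5.98% and 5.97% of all genes. With tamoxifen 35 fell and 3 rose (23.6% and 2.03%, median -0.13), against 8.71% and 6.49% of all genes. With each array's replicate number in the model, 1 fell and 2 rose without tamoxifen, where 2.23% of all genes fell and 2.53% rose. In that model 6 fell and 0 rose with tamoxifen, where 1.31% of all genes fell and 1.39% rose. With tamoxifen, 7 of 19 genes of the outer kinetochore and checkpoint were lower and 1 higher, 6 of 23 of the spindle and motors lower, 5 of 16 of the inner kinetochore lower, and 5 of 10 of the passenger complex and cytokinesis lower and 1 higher. The transcription list had 4 of 16 lower, the anaphase-promoting complex 3 of 16, condensin 2 of 8 with 1 higher, the centriole 2 of 9 and cohesin 1 of 15, the last near the share of all genes. Mitotic entry, with the CDC25 phosphatases and WEE1, had 0 of 16 in either direction there. Replication and S phase genes had 3 of 30 lower and 0 higher without tamoxifen, and 6 lower and 1 higher with it (medians -0.03 and -0.13), where the all-gene shares lower were 5.98% and 8.71%. With the replicate number in the model, 0 of the 30 passed in either setting.

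**Figure D5:**
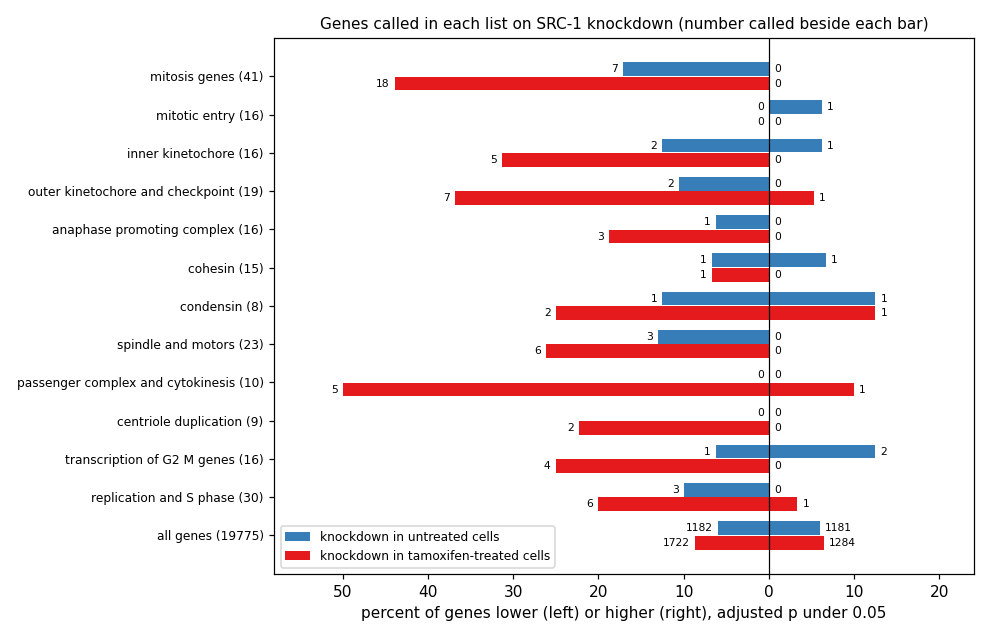
Percent of the measured genes of each list (number measured in brackets) that were lower (bars to the left) or higher (to the right) on SRC-1 knockdown without tamoxifen (blue) and with it (red), with the number called beside each bar. The 41 mitosis genes had 7 and 18 lower and 0 higher, and all 19775 genes are the bottom pair of bars.

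LIN9, a core subunit of the MuvB complex that binds CHR elements, had the largest called change of these lists, -0.74 ± 0.08 with tamoxifen (adjusted p = 5.36e-04) against -0.13 without it (adjusted p = 0.255). It was also the only gene of these lists with a called interaction (-0.61, adjusted p = 0.0323), a call that was lost with the replicate number in the model (adjusted p = 0.353). NFYB, a subunit of the CCAAT-binding factor, fell by 0.37 with tamoxifen, and RBL1, a pocket protein of the same regulatory complexes, by 0.29. Without tamoxifen MYBL2, which encodes B-MYB, fell by 0.28, while LIN52, another MuvB subunit, rose by 0.47 and E2F7, a repressor, by 0.29. 

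At the kinetochore, CENPK (-0.67) and CENPQ (-0.43) of the inner plate fell with tamoxifen, as did MIS18A (-0.34) of the same list. SPC25 (-0.52), SPDL1 (-0.42) and TRIP13 (-0.36) of the outer plate and checkpoint also fell with it. MAD2L1BP, which helps to switch the checkpoint off, rose by 0.26 there. Without tamoxifen OIP5 (-0.41), CENPU (-0.17), SKA3 (-0.26) and SPDL1 (-0.20) fell and CENPH rose by 0.38. Of the spindle genes, HAUS6 of the augmin complex fell in both settings (-0.31 and -0.48), as did GTSE1 (-0.25 and -0.29); SPAG5 fell without tamoxifen (-0.41) and HAUS2 with it (-0.57). In the passenger and cytokinesis list SHCBP1 (-0.46), the microtubule-severing SPAST (-0.43) and RACGAP1 (-0.26) fell with tamoxifen and the motor KIF13A rose by 0.34.

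Among genes of chromosome structure, the cohesin protector SGO2 fell in both settings (-0.26 and -0.43), as did the condensin subunit SMC2 (-0.30 and -0.45), with SMC4 lower with tamoxifen (-0.18). The condensin II subunit NCAPH2 rose in both (0.33 and 0.52), and the cohesin loader NIPBL rose without tamoxifen (0.42). Of the ubiquitin machinery of anaphase, ANAPC5 fell without tamoxifen (-0.23), and FBXO5, an inhibitor of that complex, ANAPC16 and CDC23 fell with it (-0.40, -0.23 and -0.25). The centriole genes PLK4 and SASS6 fell with tamoxifen (-0.23 and -0.27), and PPP2R2A, a phosphatase subunit, rose without it (0.23). In S phase, MCM6 of the replicative helicase fell in both settings (-0.22 and -0.25). RRM1 (-0.25) and UHRF1 (-0.20) fell without tamoxifen, and MCM10 (-0.35) and GINS2 (-0.23) with it, where the chromatin assembly subunit CHAF1A rose by 0.35. With the replicate number in the model, the calls of CENPK, HAUS6, LIN9, SGO2, SPC25 and SPDL1 with tamoxifen were kept. Without tamoxifen those of CENPH, HAUS6 and LIN52 were kept. The other knockdown calls named from these lists were lost in that model.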

How the data were processed

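Per the labels, total RNA was amplified with a NuGEN Ovation kit, labelled with biotin and read on 14 HG-U133 Plus 2.0 arrays. The deposited values were made by the authors as 1 log2 value per probe set and array. The log base was inferred from their range, and R 2.9.2 is the single tool in the submitters' processing notes. How they were normalized is not given in the sources used here. Values were used as deposited. Of 54675 probe sets, 62 control sets were left out, and 41091 of the rest carried 1 symbol, 1801 several and 11721 none; old symbols were updated through gene IDs in RefSeq's table. The number of arrays limits the precision.

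Group means over all 14 arrays were fitted with limma 3.58.1 (lmFit, eBayes; two-sided, Benjamini-Hochberg over 54613 probe sets, threshold 0.05) in R 4.3.3, with an additive model for effects over both treatments or both siRNAs, 7 comparisons in all. Fits were tested on simulated data with noise drawn independently for each probe set and array. Shifts shared by the genes of an array were not simulated. A gene is its brightest probe set. The members, gene lists and tests were chosen with earlier results of these data known. Array values are given for members that passed in a main comparison, at most 12 per comparison by adjusted p, and always for FOXM1, MKI67, CDK1 and CCNB1; up to 3 genes per direction are named from each other list, by adjusted p. PLK1 and CENPE, which passed over both treatments, were added after their values were seen. Alternatives were quantile normalization, median centring, a filter on dim probe sets, the replicate number as a term, fewer arrays, trend and robust eBayes, array weights, other rules for several probe sets, and leaving out each array. Replicate numbers showed no positive pairing of the arrays. Deviations of arrays sharing a number in different groups correlated at -0.58 to -0.04 over 18 pairs. Pairs of other numbers in other groups correlated at -0.22 to 0.45 over 54 pairs. Of 186 genes in the other lists, 178 were measured and the rest are not analysed here.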

Additional observations from a re-analysis of the deposited data

Results flagged for a closer look

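Groups of 4 arrays were searched for an array far from the rest (gap to its nearest neighbour over the group's range above 0.829), in 26 members and the mean of all 41. Of 81 such groups 8 stood out, and the mean of all 41 was not among them. Chance alone gives about 1 in 20 for a single group, but the members vary together over the same arrays. That rate therefore does not apply to the count of 8. In 7 of the 8 it was the control untreated array of replicate 4 that was lowest. Its log2 signal was 11.78 for CCNB1 (next lowest 12.04), 7.95 for PLK1 (8.63), 12.16 for AURKA (12.25) and 9.29 for NEK2 (9.49). It was 11.41 for TPX2 (11.66), 11.51 for HMMR (11.66) and 10.85 for DLGAP5 (11.09). For ECT2 the control untreated array of replicate 3 was lowest, at 11.80 (11.89). The 3′ to 5′ differences of the replicate 4 array, 3.15 for ACTB and 0.874 for GAPDH, were the highest of its group and lay within the range of the other groups; their part in the low values was not tested.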

How the results depend on the processing

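With a replicate block, which adds the replicate number to the model, 0 members were lower on knockdown without tamoxifen in place of 7, 4 with it in place of 18, 11 over both treatments in place of 22, and 0 for tamoxifen in control cells in place of 1; all were among those called without it. The numbers show no positive pairing of the arrays, since 0 of 18 same-number pairs correlated above 0.1. Their median correlation was -0.33, against 0.14 for pairs of other numbers in other groups. The source of this negative relation was not tested. With numbers 1 and 3 only, the counts were 0, 3 and 0 for the first, second and last of these comparisons, and the medians of the untreated knockdown and the interaction were -0.24 and -0.07 in place of -0.14 and -0.17. Without replicate 4 of every group, 11 passed untreated (4 shared) and NEK2 was lost (0 members); with the block as well, chosen after seeing the data, 2, 4 and 0 passed. NEK2 was also lost (0 members) with only the arrays compared and with the mean of probe sets. Leaving out single arrays gave 5 to 12 members untreated, 0 to 1 for tamoxifen in control cells and 0 in the comparisons not named here. Where both SRC1-siRNA tamoxifen arrays were kept, it gave 17 to 24 members treated and 18 to 27 over both treatments. Without that of replicate 1, both counts were lower. Shares of all genes called were not computed for fits with fewer arrays. Medians stayed between -0.17 and -0.11 untreated, -0.36 and -0.25 treated, -0.24 and -0.18 over both treatments, and 0.08 and 0.16 for tamoxifen in control cells. The tamoxifen median in SRC1-siRNA cells ran from -0.08 to 0.01, over both siRNAs from 0.04 to 0.09, and the interaction from -0.23 to -0.11. Where 1 SRC1-siRNA tamoxifen array was left out, the spread of the remaining one was taken from the other groups. None of 48 member results reversed under the other settings. The block ended 33 of the 48 calls, numbers 1 and 3 alone 31, quantile normalization 2 and median centring 1. The cause of these shifts was not tested.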
